A study of Mus musculus with 24 samples.

Results

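Letrozole, an inhibitor of aromatase, the enzyme that makes oestrogens from androgens, was compared with no treatment in the mammary glands of aged mice of the Esr1 line. The comparison rested on 6 of the 24 libraries of the series, 3 letrozole and 3 untreated mice, and the members were chosen by group label alone. Mice of this line carried 2 transgenes, MMTV-rtTA and tet-op-Esr1: the MMTV promoter drives the rtTA activator mainly in mammary epithelium, and rtTA turns on Esr1, the oestrogen receptor alpha gene, when the mice are induced. Both groups were 20 months old after 8 months of induction, and both therefore carried the induced transgene. The letrozole group had a subcutaneous pellet of 2.5 mg released over 60 days, implanted at 18 months and carried for the last 2 months. The untreated group bears the tag PLA, which the labels do not explain, so it is unknown here whether those mice had a drug-free pellet. Each library came from a separately numbered animal, and no mouse without transgenes was among the samples used here. For reference, use was also made of 3 Esr1 mice at 18 months (6 months of induction, no drug), 3 Esr1 mice given tamoxifen from 18 to 20 months (25 mg over 60 days), and the untreated and letrozole mice of the CYP19A1 line (MMTV-rtTA and tet-op-CYP19A1, an aromatase transgene, with the same ages and induction).

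The mammary gland is a branched epithelium of inner luminal and outer basal (myoepithelial) cells set in fat. Some luminal cells sense oestrogen and progesterone and instruct their neighbours by secreted signals. Others, the alveolar cells, make milk under prolactin and the factors Stat5a and Elf5. Levels are in TPM, the share of a library's transcripts per 1000000, and differences are log2(TPM + 1) in letrozole minus untreated mice with the standard error (SE) of a limma fit over 19325 genes of 55487. The threshold was 0.05 on p adjusted by Benjamini-Hochberg, and "fell" and "rose" are used only of genes that passed. In whole tissue, fewer cells of a type and less RNA per cell cannot be told apart.

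Esr1 (chromosome 10, 4611989 to 5005633, ENSMUSG00000019768.16) was 16.1, 6.98 and 14.3 TPM in the 3 untreated mice and 15.1, 16.8 and 16.1 TPM in the 3 letrozole mice. The low value was untreated replicate 2, the groups overlapped, and the difference of 0.41 ± 0.21 (SE) did not pass (adjusted p = 0.22). At 18 months Esr1 was 14.2, 14.8 and 14.3 TPM. Transgene and endogenous Esr1 are not told apart by this value. Cyp19a1, the mouse aromatase gene, was at or under 0.15 TPM in every library of the Esr1 line and was not tested.

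Libraries of the 6 mice held 14595 to 17113 genes at 1 TPM or more. Ribosomal RNA models took 31.3% of TPM in untreated replicate 2 and 3.78% in untreated replicate 3, against 0.0591% to 0.168% in the other 4. Untreated replicate 2 also had the lowest scores of the group for skeletal muscle (8.00, against 9.74 and 9.47) and white fat (6.00, against 8.36 and 7.46), a score being the mean log2(TPM + 1) of a list's genes. The letrozole mice scored 10.29 to 10.44 for muscle and 8.39 to 8.51 for fat. Fits rescaled without ribosomal, Rn7s and mitochondrial RNA, and fits with the muscle score as a covariate, are given in the last section. The part of the fat score in the results was not tested.

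The pan-epithelial genes were lower in every letrozole mouse. Their score, over 12 genes that most epithelial cells express, was 4.05, 4.74 and 4.61 in untreated and 2.62, 2.32 and 2.87 in letrozole mice, a difference of -1.86, or 27.5% of the untreated level. Leaving each of the 12 genes out in turn moved this difference only between -1.91 and -1.82. Epcam, the epithelial adhesion molecule, was 82, 103 and 96.4 TPM in untreated and 24.2, 17.1 and 31.7 TPM in letrozole mice, a difference of -1.94 ± 0.46 (SE, limma adjusted p = 0.016). Cdh1, which encodes E-cadherin, was 24.8, 28.1 and 31.4 TPM against 6.93, 4.97 and 9.19 TPM (-1.89 ± 0.39, adjusted p = 0.009). Esrp1, an epithelial splicing regulator, was 18.6, 29.6 and 26 TPM against 3.88, 3.28 and 4.95 TPM (-2.34 ± 0.45, adjusted p = 0.006). No untreated value reached into the letrozole range for these genes. All 12 fell, against 5.81% of all genes tested: the differences were -1.71 for Esrp2 (splicing), -1.27 for Grhl2 (an epithelial transcription factor), -1.50 and -1.83 for the protease inhibitors Spint1 and Spint2, -2.02 and -2.02 for the membrane proteases St14 and Prss8, -2.07 for the claudin Cldn7, and -1.53 and -2.22 for Rab25 and Ap1m2, which sort membrane vesicles. Without letrozole replicate 1, letrozole replicate 2 or untreated replicate 2, the number that passed was 6, 2 and 3; Esrp1 and Prss8 passed whichever of the 6 libraries was left out.

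Across all genes, 550 rose (2.85%) and 1122 fell (5.81%), together 8.65% of those tested; the groups did not overlap for 11.2% of genes with letrozole higher and 16.5% with letrozole lower. The median over all genes was -0.0056. Scaling each library by the median of its gene ratios gave 1902 higher and 2286 lower. The numbers higher and lower were 120 and 497 without letrozole replicate 1, 71 and 209 without letrozole replicate 2, and 173 and 620 without letrozole replicate 3. They were 2212 and 1227 without untreated replicate 1, 78 and 668 without untreated replicate 2, and 555 and 591 without untreated replicate 3. Of 120 other epithelial list members tested, 44 fell and 0 rose; at an unadjusted p under 0.05 in the same limma fit, 62 were lower and 4 higher. A set of 14 of the 44 passed whichever of the 6 libraries was left out: Cgn, Cldn3, Cldn8, Csn1s1, Folr1, Gata3, Gjb2, Gjb6, Lgr6, Muc15, Muc20, Rspo1, Stat5a and Tjp3.

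**Figure D1:**
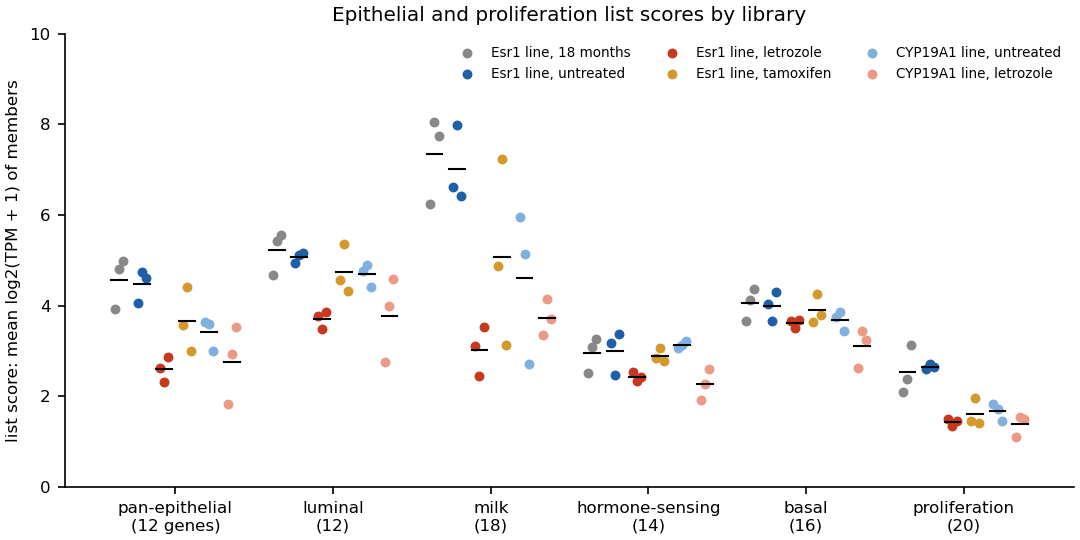
List scores, the mean log2(TPM + 1) over a list's genes, for each library (points) of 6 groups, with group means as bars. The 3 letrozole mice of the Esr1 line sit at 2.32 to 2.87 for the pan-epithelial list, below the 3 untreated mice at 4.05 to 4.74, and at 2.45 to 3.52 against 6.42 to 7.99 for the milk list.

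Milk genes had the lowest median difference of the epithelial lists. Of 18, all tested, 12 fell and none rose, against 5.81% and 2.85% of all genes (14 lower and 0 higher at an unadjusted p under 0.05). The median was -3.04. Csn2, beta-casein, stood at 2674, 13221 and 3205 TPM in untreated and 11.2, 0.79 and 12.2 TPM in letrozole mice. Its mean in letrozole mice was 0.126% of that in untreated mice (-9.52 ± 2.12, adjusted p = 0.013). Csn1s2a, another casein, was 2842, 16219 and 3189.6 TPM against 9.64, 0.42 and 13.9 TPM (-9.76 ± 2.07, adjusted p = 0.01). The ranges of the groups were far apart for both caseins, and letrozole replicate 2 was the lowest library. Csn1s1, alpha-casein, was 1566, 6742 and 2089.7 TPM against 67, 15 and 120.4 TPM (-5.78 ± 1.09, adjusted p = 0.0057). Wap, whey acidic protein, was 203, 736 and 26.3 TPM against 0.08, 0.08 and 0 TPM (-7.25 ± 1.94, adjusted p = 0.028). Glycam1, a secreted mucin-like milk protein, was 603, 3458 and 107 TPM against 0.86, 0.28 and 0.25 TPM (-8.73 ± 1.98, adjusted p = 0.014). In these 3 genes, too, the groups did not overlap, although the untreated mice differed widely among themselves, with replicate 2 highest. Over all genes, 16.5% did not overlap with letrozole lower.

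Other milk genes that fell were Lalba (alpha-lactalbumin, the lactose synthase subunit; -5.13), Muc15 (a milk fat globule mucin; -4.09), Cel (a milk lipase; -3.79), Csn3 (kappa-casein; -3.12), Folr1 (a folate carrier; -2.97), Slc34a2 (a phosphate transporter; -2.96) and Btn1a1 (butyrophilin, of the fat globule membrane; -2.54). Not all milk genes did so. Ltf, lactoferrin, was 159, 111 and 112 TPM in untreated and 106, 145 and 184 TPM in letrozole mice (0.17 ± 0.53, adjusted p = 0.88). Xdh, which is needed for fat droplet secretion, was 84.6, 122 and 86.3 TPM against 66.1, 63.7 and 67.9 TPM (-0.54 ± 0.25, adjusted p = 0.18). Mfge8 (-0.79), Olah (-1.44), Spp1 (-2.12) and Csn1s2b (-1.50) did not pass either, and Csn1s2b is listed at 0 in all 3 letrozole libraries. Without letrozole replicate 2 or untreated replicate 2, 3 and 6 of the 18 passed, while 8 to 12 passed without any other single library.

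The promoters of 5 genes are shown because they were among the furthest lower relative to the pan-epithelial RNA level described further on, and because 3 of them (milk genes) hold a match to TTCNNNGAA, the consensus that Stat5 proteins bind, while Gjb6 and Rspo1 do not. They are the 250 bases before a RefSeq transcript start (GRCm38.p6), written along the gene's strand from 5′ to 3′, with the match in capitals. The motif is its own reverse complement, so a single search covers both strands.
Csn2 (chr5:87699426-87699675, minus strand): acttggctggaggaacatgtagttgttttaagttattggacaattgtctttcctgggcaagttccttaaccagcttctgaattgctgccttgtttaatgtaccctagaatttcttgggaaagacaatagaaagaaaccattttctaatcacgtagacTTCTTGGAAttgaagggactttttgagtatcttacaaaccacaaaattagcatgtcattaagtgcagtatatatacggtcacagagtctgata
Csn1s1 (chr5:87665958-87666207, plus strand): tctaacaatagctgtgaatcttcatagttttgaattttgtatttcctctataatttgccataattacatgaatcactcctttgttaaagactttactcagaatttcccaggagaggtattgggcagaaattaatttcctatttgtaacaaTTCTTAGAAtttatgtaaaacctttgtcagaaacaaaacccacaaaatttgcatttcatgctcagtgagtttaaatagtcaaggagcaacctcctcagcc
Glycam1 (chr15:103565082-103565331, minus strand): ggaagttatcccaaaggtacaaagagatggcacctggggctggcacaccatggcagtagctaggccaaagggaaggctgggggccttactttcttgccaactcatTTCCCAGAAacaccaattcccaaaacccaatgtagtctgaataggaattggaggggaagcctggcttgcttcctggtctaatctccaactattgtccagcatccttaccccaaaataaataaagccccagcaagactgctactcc
Gjb6 (chr14:57133612-57133861, minus strand): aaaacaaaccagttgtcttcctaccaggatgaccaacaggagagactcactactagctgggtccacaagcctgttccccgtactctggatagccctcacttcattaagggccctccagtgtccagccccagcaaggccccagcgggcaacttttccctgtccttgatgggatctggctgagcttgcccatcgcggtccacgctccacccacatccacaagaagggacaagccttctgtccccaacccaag
Rspo1 (chr4:124986180-124986429, plus strand): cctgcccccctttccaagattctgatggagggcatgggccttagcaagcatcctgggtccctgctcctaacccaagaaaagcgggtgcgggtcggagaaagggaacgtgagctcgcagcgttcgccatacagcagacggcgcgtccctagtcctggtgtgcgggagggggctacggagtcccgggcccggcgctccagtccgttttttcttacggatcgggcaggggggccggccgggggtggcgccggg
The promoters of Csn1s2a, Wap and Lalba held no match. The match lay 93 to 85 bases before the start in Csn2, 100 to 92 in Csn1s1 and 145 to 137 in Glycam1. Of 8 milk genes that were lower than the pan-epithelial score and had a promoter in the table, 3 held a match. So did 2 of 6 reference genes with one, and 8.13% of all 27025 genes with a promoter of the same length. A match is only these letters in this window, and its absence says nothing of other positions.

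**Figure D2:**
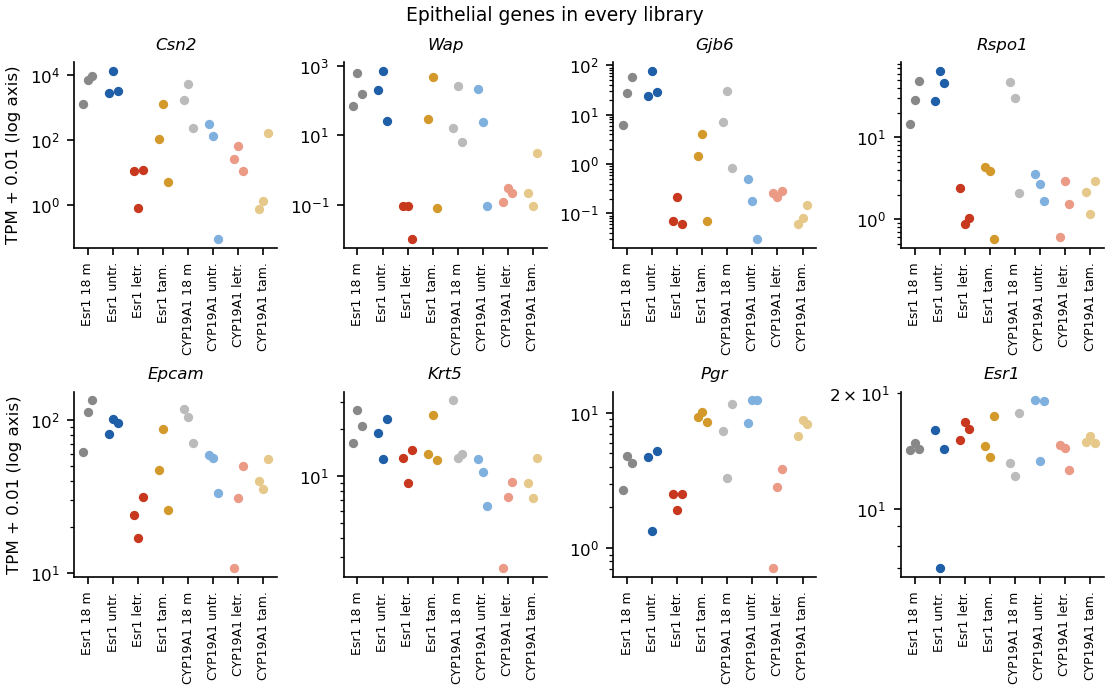
TPM + 0.01 on a log axis for 8 genes in every library of all 8 groups (points; 18 m, 18 months; untr., untreated; letr., letrozole; tam., tamoxifen; each panel has its own scale). Csn2, Wap, Gjb6 and Rspo1 are lower in the 3 letrozole mice of the Esr1 line than in its untreated or 18-month mice, whereas Krt5, Pgr and Esr1 are not apart to the same degree.

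Of 12 junction genes listed, 10 were tested, 7 fell and none rose, against 5.81% and 2.85% of all genes (8 lower and 0 higher at an unadjusted p under 0.05). The median was -1.85, and 5 to 7 passed whichever library was left out. The furthest fall was in Gjb6 (chromosome 14, 57123301 to 57133611), which encodes connexin 30, a gap junction protein of luminal cells. It was 24.2, 77.8 and 29.1 TPM in untreated and 0.06, 0.21 and 0.05 TPM in letrozole mice (-5.15 ± 0.80, adjusted p = 0.0029). Gjb2, a nearby gene on chromosome 14 that encodes connexin 26, was 26.9, 84.7 and 28.8 TPM against 1.09, 1.47 and 0.87 TPM (-4.28 ± 0.74, adjusted p = 0.0041). The untreated and letrozole ranges of both connexins lay far apart. Tjp3 and Cgn, scaffold proteins of tight junctions, fell by 2.93 and 2.48 on the log2 scale, and the claudin Cldn8 fell by 2.41. Ocln (occludin; -1.28) and Marveld2 (tricellulin) also fell. The connexin Gja1, made by basal and stromal cells, was 19.7, 9.7 and 19.6 TPM against 15.4, 14.4 and 14.6 TPM (-0.073 ± 0.21, adjusted p = 0.87).

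Among general luminal genes, 7 of 12 fell and none rose, against 5.81% and 2.85% of all genes (10 lower and 0 higher at an unadjusted p under 0.05). The median was -1.43. The luminal keratin Krt8 was 79.4, 97.3 and 103 TPM in untreated and 30.1, 20.4 and 30.4 TPM in letrozole mice (-1.77 ± 0.41, adjusted p = 0.014). Krt18 (-1.52), Krt19 (-1.33), the claudin Cldn3 (-2.26), the surface proteins Cd24a (-1.54) and Muc1 (-2.26), and the transcription factor Ehf (-2.83) fell as well. Krt7 (11, 4.95 and 9.13 TPM against 5.43, 5.69 and 5.87 TPM) overlapped between the groups. Of 12 apical and secreted genes 6 fell, again against 5.81% of all genes, Muc1 and Muc15 among them, which other lists also hold. Pigr, the receptor that carries IgA into milk, was 19.2, 64.2 and 22.6 TPM against 0.36, 0.2 and 0.81 TPM (-4.45 ± 0.96, adjusted p = 0.011). Wfdc18, a secreted protein of the whey acidic protein family, was 381, 1379 and 419 TPM against 35.6, 19.1 and 50.1 TPM (-4.17 ± 0.91, adjusted p = 0.011). Without letrozole replicate 2, 1 luminal and 2 apical genes passed; without untreated replicate 2, the numbers were 3 and 2.

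Progenitor and alveolar regulators split. Elf5, the factor that specifies alveolar cells, was 66.5, 136 and 73.3 TPM in untreated and 10.7, 7.59 and 14.6 TPM in letrozole mice (-2.93 ± 0.59, adjusted p = 0.0079). Stat5a, which carries the prolactin signal, was 29.5, 59.3 and 42.1 TPM against 13.9, 13.2 and 15.1 TPM (-1.51 ± 0.31, adjusted p = 0.0081). Its paralogue Stat5b was 23.8, 20.1 and 27 TPM against 25.6, 24.8 and 26.4 TPM (0.12 ± 0.21, adjusted p = 0.77). The groups were apart for Elf5 and Stat5a and overlapped for Stat5b. In all, 5 of 12 fell, against 5.81% of all genes: Elf5, Stat5a, Sox9 (-1.48), Sox10 (-1.79) and Tfap2c (-1.49). The prolactin receptor Prlr was 36.2, 16.4 and 29.2 TPM against 14.5, 15.9 and 14.1 TPM and did not pass (-0.77 ± 0.35, adjusted p = 0.17). The count was 2 without letrozole replicate 1, 1 without letrozole replicate 2, and 2 without untreated replicate 2 or untreated replicate 3.

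Hormone-sensing genes had a median difference nearer 0 than the milk and junction genes. Of 14 tested, 3 fell and none rose, against 5.81% and 2.85% of all genes (4 lower and 1 higher at an unadjusted p under 0.05). The median was -0.37. Pgr, the progesterone receptor and a target of oestrogen, was 4.73, 1.33 and 5.23 TPM in untreated and 2.52, 1.9 and 2.52 TPM in letrozole mice (-0.40 ± 0.39, adjusted p = 0.56). All letrozole values lay between the lowest and highest untreated value. In tamoxifen mice of the same line Pgr was 9.2, 10.1 and 8.48 TPM. Areg, amphiregulin, the EGF-family ligand that relays oestrogen to neighbouring cells, was 11, 4 and 9.16 TPM against 3.79, 1.32 and 4.63 TPM (-1.10 ± 0.59, adjusted p = 0.25). Only letrozole replicate 3 reached above the lowest untreated value. The 3 that fell were Gata3, a luminal transcription factor (17.1, 15.3 and 23.8 TPM against 5.76, 4.5 and 7.23 TPM; -1.52), and the secreted Tnfsf11 and Calca. Gata3 passed whichever library was left out, and it was the only 1 of the 3 to pass without any library other than untreated replicate 1.

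Of 12 tested genes of the secreted signals below the progesterone receptor and their receptors, 5 fell and none rose (8 lower and 0 higher at an unadjusted p under 0.05), with a median of -0.68. Of all genes 5.81% fell and 2.85% rose. Rspo1, R-spondin 1, which amplifies Wnt signals to mammary stem cells, was 27.9, 65.5 and 46.5 TPM in untreated and 2.4, 0.86 and 1.04 TPM in letrozole mice (-4.26 ± 0.75, adjusted p = 0.0045). Tnfsf11, RANKL, the main signal by which progesterone drives neighbouring cells to divide, was 2.19, 5.14 and 7.55 TPM against 0.21, 0.03 and 0.15 TPM (-2.29 ± 0.56, adjusted p = 0.018). Calca, calcitonin, was 13.6, 20.6 and 50.1 TPM against 2.79, 0.41 and 1.26 TPM (-3.46 ± 0.96, adjusted p = 0.032). Their groups did not overlap, as was so for 16.5% of all genes with letrozole lower. The RANKL receptor Tnfrsf11a (-1.40) and the R-spondin receptor Lgr6 (-1.63) fell too. The ligand Wnt4, in contrast, was 3.25, 2.85 and 4.24 TPM against 2.64, 2.57 and 2.19 TPM (-0.35 ± 0.22, adjusted p = 0.34). Without letrozole replicate 2 the count was 2; it was 3 without letrozole replicate 1 or 3 or without untreated replicate 2 or 3.

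Classical oestrogen targets were near 0 as a list in whole tissue, a value that does not separate epithelial from other cells. Of 20 listed, 16 were tested, 2 fell and none rose, against 5.81% and 2.85% of all genes (2 lower and 1 higher at an unadjusted p under 0.05). The median was 0.033. Those that fell were Myc, a driver of growth (17.7, 20.9 and 20.8 TPM against 7.53, 5.17 and 6.58 TPM; -1.50 ± 0.31, adjusted p = 0.0089), and Xbp1, a secretory cell factor (125, 192 and 117 TPM against 64.8, 51.8 and 57.8 TPM; -1.27 ± 0.28, adjusted p = 0.01). Greb1 was 0.81, 0.32 and 1.17 TPM against 1.66, 1.3 and 0.66 TPM, Nrip1 was 30.6, 14.6 and 23.3 TPM against 27, 31.7 and 31.6 TPM, and neither passed. Untreated replicate 2 was the lowest library for both. Tff1 is listed at 0 in all 6 libraries. Of 10 tested EGF ligands and receptors only Erbb3, a receptor of neuregulins, fell (11.5, 18 and 18.3 TPM against 5.2, 4.61 and 6.34 TPM; -1.39 ± 0.36, adjusted p = 0.023). Erbb3 no longer passed without letrozole replicate 1 or 2 or untreated replicate 2 or 3; Myc and Xbp1 no longer passed without letrozole replicate 2, nor Xbp1 without untreated replicate 2.

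None of 16 basal genes passed in the limma fit, although 15 had a negative sign and 5 were lower at an unadjusted p under 0.05. The basal keratin Krt5 was 18.9, 13 and 23.5 TPM in untreated and 13, 9.05 and 14.7 TPM in letrozole mice (-0.54 ± 0.39, adjusted p = 0.41). Krt14, its partner, was 26.3, 32.8 and 36.5 TPM against 21.6, 9.9 and 18.9 TPM (-0.94 ± 0.35, adjusted p = 0.093). Trp63, the master factor of basal cells, was 7.62, 5.21 and 10.6 TPM against 6.91, 6.18 and 7.58 TPM (-0.11 ± 0.27, adjusted p = 0.83). The contractile genes Acta2 (-0.48), Myh11 (-0.44) and Cnn1 (-0.77) also mark the smooth muscle of vessels. The list's median was -0.36, and 14 of the 16 were lower with array weights, a fit that gives noisier libraries less weight.

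Which epithelial changes exceeded the loss of pan-epithelial RNA was tested by subtracting each library's pan-epithelial score from each gene before the fit. Of 120 epithelial list members tested, 19 were lower relative to the score, 69 were higher and 32 did not pass. Over all 19325 genes, 41 were lower (0.212%) and 18281 higher (94.6%), together 94.8%, since a gene from any other tissue that held its level is higher on this scale; the high members are therefore read against 94.6%. The 19 lower members comprised 11 milk genes, 3 junction genes, Rspo1, Pigr, Wfdc18, Elf5 and Ehf, with Muc15 counted once among the milk genes.

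Relative to the score, the letrozole minus untreated difference was -7.90 for Csn1s2a and -7.66 for Csn2, the lowest of all genes tested. Glycam1 (-6.87), Wap (-5.39), Csn1s1 (-3.92) and Lalba (-3.27) were the next milk genes. Gjb6 stood at -3.29 ± 0.56 (SE, adjusted p = 6.7e-05), Gjb2 at -2.42 ± 0.47 (adjusted p = 0.0001) and Rspo1 at -2.40 ± 0.49 (adjusted p = 0.00015). Pigr (-2.59), Wfdc18 (-2.31), Muc15 (-2.23), Cel (-1.93) and Csn3 (-1.25) passed as well, and Folr1 (-1.11), Slc34a2 (-1.10), Tjp3 (-1.07), Elf5 (-1.06) and Ehf (-0.97) were the nearest to the score among those that passed. Outside the lists, Bcl2l15 (-2.33) and Lao1 (-2.36), an amino acid oxidase found in milk, were among the lowest; Lao1 no longer passed without letrozole replicate 3 or untreated replicate 2. The 13 that passed whichever of the 6 libraries was left out were Cel, Csn1s1, Csn1s2a, Csn2, Gjb2, Gjb6, Glycam1, Lalba, Muc15, Pigr, Rspo1, Tjp3 and Wfdc18. Csn3 was lost without letrozole replicate 1 or 2 or untreated replicate 1 or 2, Ehf without letrozole replicate 2 or 3 or untreated replicate 1, and Elf5 without letrozole replicate 2 or untreated replicate 2. Folr1 and Wap were lost without untreated replicate 2, and Slc34a2 without that library or letrozole replicate 3.

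Subtraction assumes that a gene moves 1 for 1 with the score. When the score entered instead as a covariate with its own slope over the 24 libraries, no gene passed in either direction. The differences that remained were -3.84 ± 2.44 (SE) for Csn1s2a, -3.28 ± 2.44 for Csn2, -2.75 ± 0.90 for Gjb6, -1.79 ± 0.77 for Rspo1 and -1.62 ± 0.65 for Gjb2, with adjusted p between 0.53 and 0.69. A fall beyond the pan-epithelial loss was thus called under 1 of these models and not under the other. The covariate fit also passed neither Rps2 (3.85 ± 1.12) nor Cd300ld3 (1.85 ± 0.39), each at a limma adjusted p of 0.485. Both rose in the first comparison with groups far apart, so a lack of calls in this fit does not show that a gene moved with the score. With a luminal keratin reference of 5 genes (Krt8, Krt18, Krt7, Krt19 and the claudin Cldn3), 25 members were lower and 59 higher. The score of these 5 differed by -1.46, and they are themselves among the members counted.

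**Figure D3:**
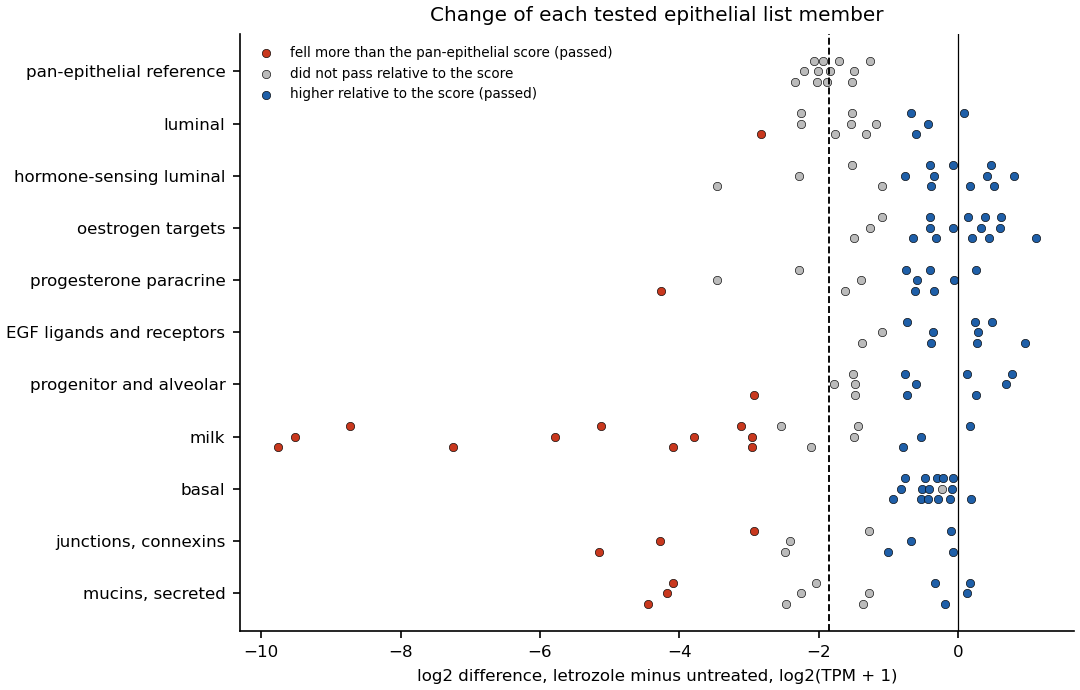
Log2 difference (letrozole minus untreated) of each tested epithelial list member, by list, coloured by the test relative to the pan-epithelial score; the dashed line is the score's own difference of -1.86. Milk genes, Gjb6, Gjb2 and Rspo1 reach below the line, whereas the basal genes lie between -0.94 and 0.17.

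The other members either did not pass relative to the score or were higher than it. Gata3 (0.34), Calca (-1.60 ± 0.90, adjusted p = 0.099), Stat5a (0.35), Krt8 (0.092) and Cldn3 (-0.40) did not pass. Tnfsf11 did not pass either (-0.43, adjusted p = 0.38), but at its low level log2(TPM + 1) limits how far it can fall; with log2(TPM + 0.1) it was lower than the score (-2.33 ± 0.76, adjusted p = 0.0063). On that scale 22 members were lower, Cgn, Cldn8 and Muc20 joining them and Csn3 dropping out, and 66 higher. Among hormone-sensing genes 10 of 14 were higher, among oestrogen targets 13 of 16, among EGF genes 8 of 10 and among basal genes 15 of 16, against 94.6% of all genes. With log2(TPM + 1), the median difference relative to the score over all genes was 1.86, the value of a gene near its untreated level. In the milk list Ltf (2.03), Xdh (1.32) and Mfge8 (1.07) were higher than the score, Xdh and Mfge8 by less than that median. Esr1 was higher than the score by 2.27, above that median, and Pgr by 1.46, below it. Both are genes that stromal cells can also express. With the score as a covariate Esr1 stood at -0.036 and Pgr at -0.094.

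In the other groups Gjb6 was 1.47, 3.99 and 0.06 TPM in tamoxifen mice of the line and 0.48, 0.17 and 0.02 TPM in untreated CYP19A1 mice. Of the tamoxifen mice, replicate 3 lay in the range of the letrozole mice and replicates 1 and 2 above it. Rspo1 was 4.35, 3.87 and 0.56 TPM with tamoxifen and 3.56, 2.68 and 1.64 TPM in untreated CYP19A1 mice. On the scale relative to the score, Elf5, which is well above 0 TPM in all these mice, ran from 1.61 to 2.36 in untreated and from 0.79 to 1.09 in letrozole mice, and was 0.78, 1.37 and 0.93 with tamoxifen.

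Proliferation genes fell. Of 20, all tested, 15 fell and none rose, against 5.81% and 2.85% of all genes (19 lower and 0 higher at an unadjusted p under 0.05). The median was -1.19. Mki67, the Ki-67 antigen of cycling cells, was 11, 12.7 and 10.3 TPM in untreated and 1.74, 1.45 and 1.7 TPM in letrozole mice (-2.22 ± 0.40, adjusted p = 0.0045). Top2a, topoisomerase 2 alpha, was 10.4, 9.09 and 9.37 TPM against 1.97, 1.97 and 2.05 TPM (-1.82 ± 0.39, adjusted p = 0.0093). Cdk1, the mitotic kinase, fell by 1.75, and Ccna2, cyclin A2, by 1.76 on the log2 scale. The groups were wide apart in these genes. Relative to the pan-epithelial score, none of the 20 was lower, against 0.212% of all genes, and 8 were higher, against 94.6%. Mki67 did not pass on that scale (-0.36, limma adjusted p = 0.37). Without letrozole replicate 2, 5 of the 20 passed.

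T and NK cell genes fell in 7 of 15 tested cases, against 5.81% of all genes, with a median of -0.89. Cd3g, a subunit of the T cell receptor complex, was 6.43, 6.15 and 6.58 TPM in untreated and 1.66, 0.7 and 2.6 TPM in letrozole mice (-1.54 ± 0.38, adjusted p = 0.018), and Trac, the receptor's alpha constant gene, was 6.88, 6.48 and 9.2 TPM against 2.12, 1.6 and 3.27 TPM (-1.37 ± 0.29, adjusted p = 0.0089). The count was 2 without letrozole replicate 1, 0 without letrozole replicate 2, 3 without untreated replicate 2 and 4 without untreated replicate 3. No B cell, macrophage, fibroblast, endothelial or interferon-stimulated gene passed among 64 tested; in the same limma fit 2 were lower and 7 higher at an unadjusted p under 0.05. Of 10 plasma cell genes tested 2 fell, against 5.81% of all genes, and 8 did not pass. Those that fell were Igha, the IgA heavy chain, and Xbp1, which the oestrogen target list also holds. Igha was 94.6, 87.3 and 172 TPM in untreated and 36.5, 11.8 and 29.3 TPM in letrozole mice (-2.22 ± 0.64, limma adjusted p = 0.038). It did not pass without letrozole replicate 1, 2 or 3 or untreated replicate 2 or 3.

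**Figure D4:**
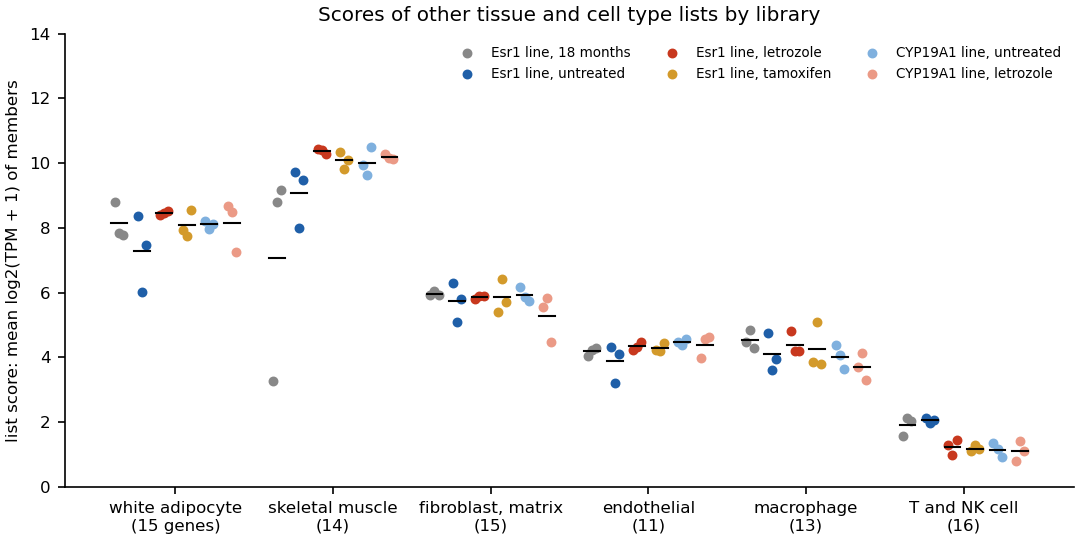
Scores of 6 lists of other tissues and cell types, as the mean log2(TPM + 1) of their genes, for each library (points) with group means as bars. Letrozole mice of the Esr1 line lie at 10.29 to 10.44 for muscle and 0.97 to 1.45 for T and NK cells, against 8.00 to 9.74 and 1.97 to 2.12 in untreated mice.

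Of 16 fatty acid synthesis genes, which fat cells and milk-making cells both express, 3 fell and 1 rose. Over all genes, the share against which the counts of this paragraph are read, 5.81% fell and 2.85% rose. Fasn, fatty acid synthase, was 377, 289 and 487 TPM in untreated and 85, 102 and 82.4 TPM in letrozole mice (-2.06 ± 0.55, adjusted p = 0.027). Srebf1, the transcription factor that drives lipid synthesis, was 89.1, 116 and 99.5 TPM against 40.2, 40 and 44.5 TPM (-1.26 ± 0.27, adjusted p = 0.01), below all 21 other libraries of the series. Acaca, acetyl-CoA carboxylase, fell by 1.61 and the sterol enzyme Sqle by 0.97 on the log2 scale. Gpam, which starts triglyceride assembly, rose from 53.5, 17.1 and 35.1 TPM to 79.1, 67.8 and 69 TPM (1.15 ± 0.30, adjusted p = 0.023). Plin4, a coat protein of fat droplets, was 276, 47 and 165 TPM against 411, 452 and 451 TPM (1.75 ± 0.51, adjusted p = 0.038), and Slc2a4, the insulin-regulated glucose transporter, was 47.4, 18.8 and 47.7 TPM against 75.9, 71.5 and 68.7 TPM (1.02 ± 0.25, adjusted p = 0.017). Untreated replicate 2 was lowest in these last 3 genes. All 15 white fat genes had a positive sign and 2 rose; 12 rose without untreated replicate 1, 1 without letrozole replicate 3 or untreated replicate 3, and 0 without letrozole replicate 1 or 2 or untreated replicate 2. The number of fatty acid genes lower was 0 without letrozole replicate 2 and 1 without letrozole replicate 1 or 3 or untreated replicate 2 or 3. Gpam did not pass without letrozole replicate 1, 2 or 3 or untreated replicate 2. Of 18 oxidative phosphorylation genes 2 rose (15 higher at an unadjusted p under 0.05); 12 rose without untreated replicate 1, 5 without untreated replicate 3 and 0 without any other library of the 6. Of 14 muscle genes 0 passed in the limma fit, and 0 had an unadjusted p under 0.05, with a median of 1.28.

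The genes that rose furthest included some in which the letrozole mice stood apart from most of the series. Rps2, a ribosomal protein, was 7.21, 5.08 and 6.93 TPM in untreated and 172, 144 and 152 TPM in letrozole mice (4.42 ± 0.75, adjusted p = 0.0037). Tamoxifen replicate 3 of the same line had 163 TPM, and the other 20 libraries lay between 3.59 and 11.7 TPM. Rpl34, another, was 4.22, 4.55 and 5.71 TPM against 96, 77.5 and 83.3 TPM (3.90 ± 0.63, adjusted p = 0.0031), with 78.9 TPM in tamoxifen replicate 3 and 35.1 to 92.5 TPM in the CYP19A1 line. Both genes have near-identical pseudogene copies that can trade reads, and their levels are uncertain.

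Zfp973, a zinc finger gene on chromosome 2, was 1.25, 0.69 and 1.05 TPM in untreated and 8.08, 8.77 and 9.88 TPM in letrozole mice (2.32 ± 0.37, adjusted p = 0.0029). It was 7.28 TPM in tamoxifen replicate 3, 0.65 to 1.37 TPM in the other 5 Esr1 mice and 14.6 to 19.2 TPM throughout the CYP19A1 line. Zfp966 (1.98) and Zfp968 (1.99), also on chromosome 2, rose too. Tamoxifen replicate 3 had 6.8 TPM of Zfp966 and 5.72 TPM of Zfp968, against 0.91 to 3.2 TPM and 1.07 to 5.42 TPM in those 5 mice, so that Zfp968 did not set the mice as clearly apart. Cd300ld3, of a family of immune cell receptors, was 0.18, 0 and 0.15 TPM against 5.47, 4.47 and 3.73 TPM (2.32 ± 0.28, adjusted p = 0.00071), 2.32 TPM in tamoxifen replicate 3 and at most 0.20 TPM elsewhere. The letrozole animals of the line bear consecutive animal numbers, which the untreated animals do not. The drug and the origin of the animals therefore cannot be told apart for such genes. The same holds for every letrozole minus untreated difference in this line, the epithelial falls included. Tamoxifen replicate 3 also had the lowest pan-epithelial score of its group, 3.01 against 3.56 and 4.41, though above all letrozole mice of the line. Whether origin had a part in the epithelial falls was not tested.

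Aldh1a1, which makes retinoic acid, was 43.3, 11.3 and 21.3 TPM in untreated and 105, 97.7 and 101 TPM in letrozole mice (2.16 ± 0.39, adjusted p = 0.0046), above all 21 other libraries. Plac9b was 15.1, 3.31 and 9.62 TPM against 46.1, 36.9 and 35.9 TPM (2.16 ± 0.40, adjusted p = 0.0051), again above all others. Tamoxifen replicate 3 had the next highest value of both, 77.5 and 29.0 TPM. Slc6a13, a GABA transporter, rose from 8.06, 0.45 and 4.03 TPM to 15.7, 15 and 14.2 TPM (1.98 ± 0.57, adjusted p = 0.04). It was lost when any 1 of the 3 letrozole libraries, untreated replicate 2 or untreated replicate 3 was left out. Myhas, an antisense RNA of the fast myosin genes, rose by 2.08, and Snora68, a small nucleolar RNA, by 3.09, which did not pass without letrozole replicate 1 or 2 or any untreated replicate.

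**Figure D5:**
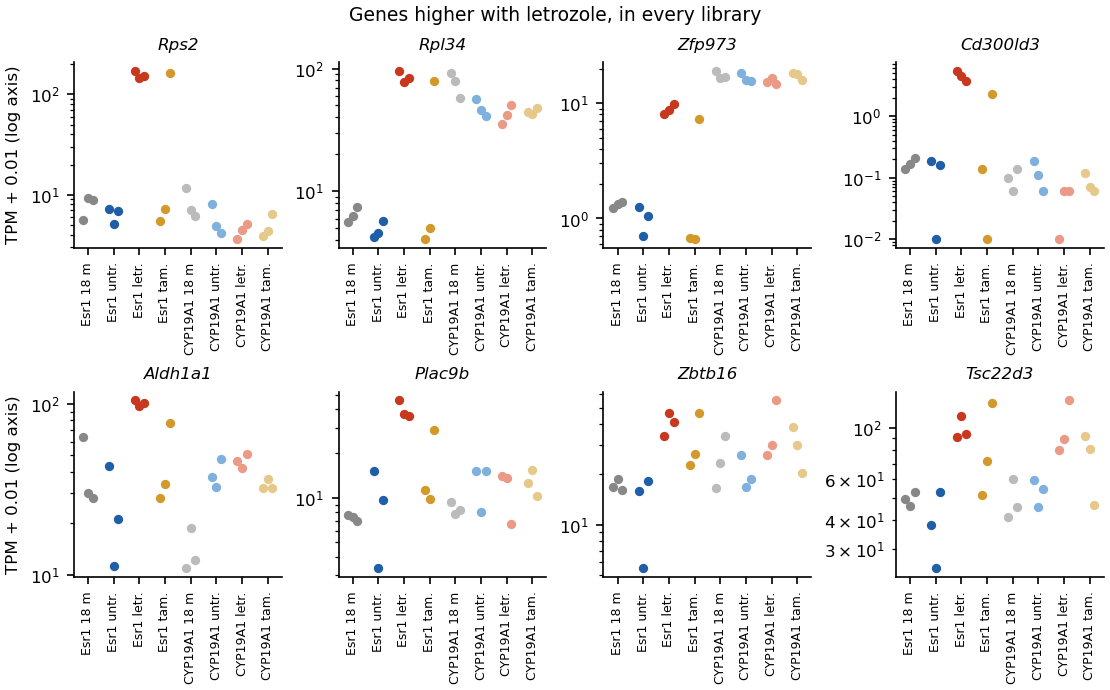
TPM + 0.01 on a log axis for 8 genes that were higher with letrozole, in every library of all 8 groups (points; abbreviations: 18 m, 18 months; untr., untreated; letr., letrozole; tam., tamoxifen). In the Esr1 line 1 of 3 tamoxifen mice lies with the letrozole mice for Rps2, Rpl34, Zfp973 and Cd300ld3.

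Genes that respond to glucocorticoids and to acute stimuli were higher in part. Tsc22d3, known as GILZ, was 38, 24.8 and 52.8 TPM in untreated and 91.3, 113 and 93.6 TPM in letrozole mice (1.40 ± 0.30, adjusted p = 0.01). Zbtb16, a transcription factor, was 15.9, 5.46 and 18.1 TPM against 33.9, 46.6 and 41.3 TPM (1.69 ± 0.37, adjusted p = 0.011), and Klf9 rose by 0.95. The groups did not overlap in these 3, which were the only ones of 12 glucocorticoid-induced genes to rise. Over all genes 2.85% rose, and 11.2% did not overlap with letrozole higher. Of 14 immediate early genes 5 rose: Nr4a1 (1.36), Dusp1 (1.24), Klf2 (0.82), Klf4 (0.79) and Zfp36 (0.60). Fos, of the same list, was 6.71, 3.62 and 5.38 TPM against 4.9, 5.9 and 7.33 TPM. Untreated replicate 2 was lowest in all 8 genes that rose, and neither list had a gene that passed without it or without letrozole replicate 2. The immediate early count was 3 without letrozole replicate 1 and 2 without letrozole replicate 3, and the glucocorticoid count 5 without untreated replicate 1.

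Against the mice of the line killed at 18 months, the age of pellet implantation, letrozole mice had 760 genes higher (3.93%) and 2162 lower (11.2%), 15.1% in all. This contrast uses none of the untreated libraries but shares the letrozole libraries with the first, so the values of both stand side by side and are not independent. All 12 pan-epithelial genes were lower, and the score differed by -1.97. Among the milk genes 14 of 18 were lower, Csn2 (-9.37), Wap (-7.51) and Lalba (-6.09) among them. Gjb6 (-4.37), Gjb2 (-3.90), Rspo1 (-3.61), Elf5 (-3.08) and Mki67 (-1.92) were lower as well, whereas Calca did not pass (-2.48 ± 0.96, adjusted p = 0.088). Egf, the ligand epidermal growth factor, was the only epithelial list member higher (0.88, 3.75 and 5.1 TPM at 18 months, 11.1, 9.73 and 9.53 TPM with letrozole; 1.55). Slow-muscle genes such as Myl2 (4.31) were among the furthest up, and the muscle score was 3.26, 8.80 and 9.17 at 18 months against 10.29 to 10.44. The counts with the muscle score as a covariate are given in the last section, and the cause of their move was not tested. The numbers higher and lower were 355 and 3482 without 18-month replicate 1, 560 and 935 without replicate 2, and 683 and 631 without replicate 3. They were 255 and 1054 without letrozole replicate 1, 207 and 532 without letrozole replicate 2, and 448 and 1350 without letrozole replicate 3.

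The effect of letrozole was then set against that in the CYP19A1 line, whose pan-epithelial score was 3.64, 3.58 and 3.00 in untreated and 1.83, 2.93 and 3.52 in letrozole mice, groups that overlapped. The score differed by -0.649 there, against -1.86 in the Esr1 line. Other scores, CYP19A1 line first, differed by -0.87 and -3.99 for milk genes and -0.92 and -1.36 for luminal genes. The values were -1.31 and -1.46 for the luminal keratin reference, -0.87 and -0.57 for hormone-sensing genes and -0.58 and -0.38 for basal genes. The scores were not tested between lines. No gene passed the limma test of the difference between the effects (0%; 2277 at an unadjusted p under 0.05), so none of the changes above is shown to be particular to the Esr1 line. Csn2 was 309, 127 and 0.08 TPM in untreated and 25.1, 63.5 and 11.5 TPM in letrozole mice of the CYP19A1 line, and its interaction was 9.18 ± 3.00 (adjusted p = 0.32). Gjb6 was already low there, at 0.48, 0.17 and 0.02 TPM untreated and 0.25, 0.21 and 0.27 TPM with letrozole (5.19 ± 1.13, adjusted p = 0.16). Pgr was 8.3, 12.3 and 12.4 TPM in untreated and 0.7, 2.84 and 3.82 TPM in letrozole mice of that line, groups apart, but its interaction did not pass (-1.50 ± 0.56, adjusted p = 0.35). The smallest p-values belonged to Cd300ld3 (-2.42, adjusted p = 0.084), Gm21769 (-1.30, adjusted p = 0.084), Gm48866, 1810043G02Rik and Gm30794 (each adjusted p = 0.12). With the 4 groups fitted alone 77 genes passed, and with array weights 681; without Esr1 untreated replicate 1 or CYP19A1 untreated replicate 1 the numbers were 17 and 1.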

How the data were processed

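RNA of whole mammary glands from 24 mice, in 8 groups of 3 by line, age and drug, was sequenced from rRNA-depleted, stranded, randomly primed libraries, per the labels' protocols. The authors deposited TPM per gene with 2 decimals, and each library sums to 1000000; TPM keeps no depth, so the depth is unknown and no counting interval is given. The submitters' processing notes name RSEM 1.3.1, STAR 2.7.9a, the mm10 build, Trim Galore 0.6.5 and FastQC 0.11.9 without their roles; no source used here gives the annotation. Groups came from the labels. From the deposited TPM, genes at 1 TPM or more in at least 3 samples (19325 of 55487) were put on the log2(TPM + 1) scale, which understates changes of low genes, and fitted with limma 3.58.1 (R 4.3.3; trend and robust settings) over all 24 samples and 8 groups, with Benjamini-Hochberg adjustment over all genes tested. The 4 contrasts were letrozole against untreated mice of the Esr1 line, the same after subtracting from each gene the mean of 12 pan-epithelial genes, letrozole against 18 months, and the difference in letrozole effect between the lines. Code was tested on simulated data. The comparison and the gene lists were chosen with earlier results of these data known, so the lists' directions are not independent evidence. Named are the members of 11 epithelial lists, up to 4 passing genes of each other list, and, at a mean of at least 2 TPM, the 12 genes furthest up and down (6 in the last contrasts; the 5 smallest p where few pass). Values of 2 genes that the rule names are not reported here. Promoters and gene positions came from RefSeq tables of GRCm38.p6, matched by symbol. Replicate numbers did not pair the samples. P-values measure the spread between these animals. Alternatives were other pseudocounts, filters, scalings, fits and references, and each library left out in turn.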

Additional observations from a re-analysis of the deposited data

How the results depend on the processing

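Depth is unknown, untreated replicate 2 carried 31.3% ribosomal RNA, and 3 mice a group limit every count. Below, numbers of genes higher and then lower are given first, followed by epithelial list members outside the reference, as far as a setting moved them. For letrozole against untreated, array weights gave 2262 and 5695 genes, with 5 members higher and 81 lower. Median-ratio scaling gave 1902 and 2286 genes with 2 members higher, rescaling without ribosomal, Rn7s and mitochondrial RNA 1276 and 2211 with 2 members higher, and the muscle score as a covariate 838 and 2146. Fitting only the groups compared gave 115 and 709 genes; without a filter 357 were higher, and log2(TPM + 5) gave 1 member higher. Relative to the score, 10735 genes were higher at 5 TPM or more and 45794 without a filter. Array weights gave 145 lower, log2(TPM + 0.1) 67 and the luminal keratin reference 67. With the score as a covariate, 0 genes and 0 members passed in either direction. For the difference between lines, array weights gave 681 genes, only the groups compared 77, the muscle score 38, no filter 9, log2(TPM + 5) 6, no trend or robust settings 4, and median-ratio scaling 1. Against 18 months, array weights gave 2493 and 8667 genes with 3 members higher and 92 lower, and the muscle score 401 and 4104. Fitting only the groups compared gave 478 and 1421 genes with 0 members higher, median-ratio scaling 1949 higher with 2 members higher, and rescaling 1282 higher. The cause of these moves was not tested.

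Leaving out each library in turn gave, against untreated, 71 to 2212 genes higher and 209 to 1227 lower, with 0 to 6 members higher and 14 to 46 lower. Relative to the score the ranges were 17250 to 18345 higher and 27 to 44 lower, with 56 to 70 and 14 to 19 members. They were 0 to 17 genes between lines, and 207 to 683 higher and 532 to 3482 lower against 18 months, with 1 member higher and 28 to 59 lower. The replicate numbers share no source, and deviations of same-numbered letrozole and untreated mice correlated at 0.022, -0.041 and -0.003. With the replicate block, counts were 528 and 1033 genes with 0 and 45 members against untreated, 18271 and 41 with 69 and 19 relative to the score, 0 between lines, and 635 and 1876 with 1 and 50 against 18 months. Signs reversed with array weights for Jag2 (-0.34) and, relative to the score, Spp1 (1.08). With the score as a covariate they reversed for Aqp5 (-0.21), Btc (-0.17), Cited1 (-0.028), Esr1 (-0.036), Foxa1 (-0.28), Igfbp4 (-0.035), Lep (-0.47), Myb (-0.030), Nrip1 (-0.11), Pgr (-0.094), Prlr (-0.28) and Susd3 (-0.073).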
